A study of Mus musculus with 24 samples.

Results

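Valine transfer RNAs gave the third largest share of the tRNA reads in these vesicle libraries, after the tRNAs of arginine and glutamate. All rows of the tRNA count tables whose name contains tRNA-Val- were taken, 21 of 408 tRNA rows and of 115485 rows in the 6 RNA classes counted. By anticodon they comprise 10 CAC rows, 8 AAC rows and 3 TAC rows. The choice rests on the names alone and on no measured value.

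The libraries were made from small RNA of epididymosomes, the extracellular vesicles of the epididymal lumen, isolated from the cauda of male C57BL/6J mice aged 7 to 8 weeks at the start. One group received DBP (dibutyl phthalate) at 2.5 mg/kg/day, one DEHP (di(2-ethylhexyl) phthalate) at 2.5 mg/kg/day, one a mixture with 2.5 mg/kg/day of each, and the control group 50% DMSO, the vehicle. All were dosed for 6 weeks through surgically implanted osmotic pumps. Each of the 4 groups has 6 libraries, and the labels give 6 mice per group, without stating that each library is a separate mouse. Libraries 1 to 3 of every group ran on sequencing lane 6 and libraries 4 to 6 on lane 7. The vesicles came from a supernatant cleared of sperm by centrifugation, and markers of sperm or of epididymal cells were not analysed here.

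Valine is carried to the ribosome by tRNAs of 3 anticodons. AAC, whose first base is modified to inosine, reads most valine codons, CAC reads GUG, and TAC reads codons ending in A or G. The mouse genome holds more gene copies of the CAC and AAC forms than of the TAC form. Cleavage near the anticodon loop yields 5′ tRNA fragments, which are abundant in mouse sperm, and those of glutamate, glycine and valine tRNAs are among the best known. Epididymosomes can pass such fragments to sperm in transit. The counts do not show read length or position, so fragments and whole tRNAs are counted together here.

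In the row names the first number marks the isodecoder, a tRNA with its own sequence outside the anticodon, and the last number marks the gene copy. The table of RefSeq genes on GRCm38.p6 lists 11 CAC, 8 AAC and 3 TAC nuclear valine tRNA genes, 22 in all, under a different naming scheme that was not matched to the rows. All valine rows are 72 or 73 bases long, so levels of different rows can be compared without a length correction. Levels are given as RPM, reads on a row scaled to 1000000 reads of the 6 classes (miRNA, tRNA, piRNA, rRNA, circRNA and lncRNA). The 6 classes held 7944772 to 14704747 reads per library, and the valine rows 179332 to 557028. Intervals for counts of this size cover counting error only, and the spread between libraries was far larger. RPM is a share, so fewer vesicles with valine tRNA and less valine tRNA per vesicle cannot be told apart.

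Valine tRNA reads made up 7.56% ± 1.54 of tRNA reads (SD, n = 24), next to 46.5% ± 5.00 for arginine, 15.8% ± 2.11 for glutamate and 7.35% ± 3.19 for glycine. The order of valine and glycine is within their spread. Among the 51 anticodons in the tables CAC ranked 7, TAC ranked 9 and AAC ranked 13. CAC held 3.17% ± 0.546 of tRNA reads, TAC 2.77% ± 0.958 and AAC 1.62% ± 0.275. In summed reads over all libraries CAC gave 41.7% of the valine reads, TAC 36.9% and AAC 21.4%. The level was 11320 ± 2485 RPM for CAC, 10004 ± 4259 RPM for TAC and 5819 ± 1528 RPM for AAC (SD, n = 24). CAC and TAC thus lie within each other's spread, while AAC was below CAC in every library, with 0.433 to 0.561 AAC reads per CAC read. For TAC the same ratio ran from 0.541 to 1.46.

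**Figure D1:**
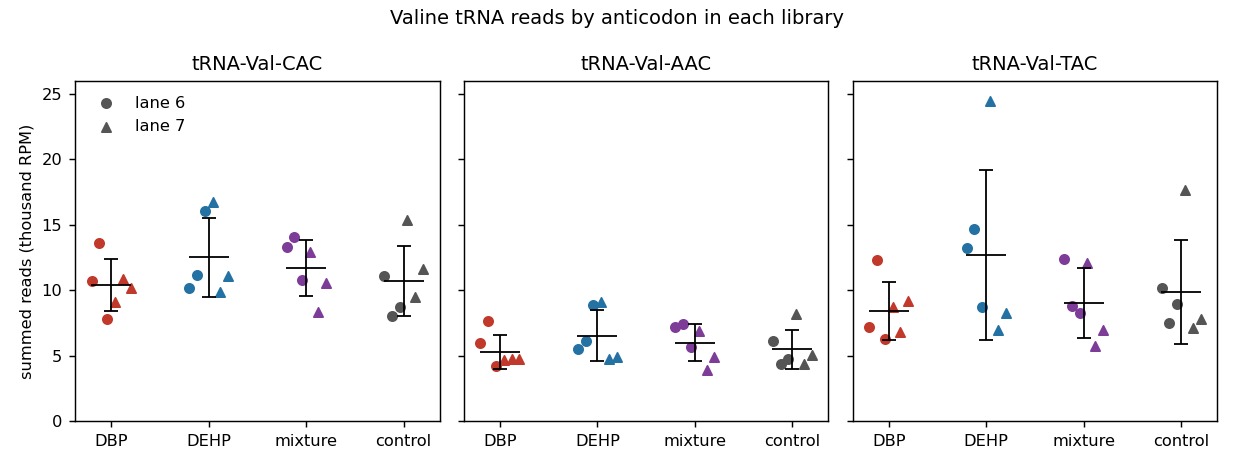
Summed reads (RPM, axis in units of 1000) on the CAC, AAC and TAC valine tRNAs in each library, by group. Circles are libraries of lane 6 and triangles libraries of lane 7, and bars give the mean ± SD of 6 libraries. Control library 4 and DEHP library 4 are the highest for TAC, and the groups overlap for all 3 anticodons.

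Within the CAC form a single isodecoder carried nearly all reads. tRNA-Val-CAC-2, with 5 gene copies, held 97.5% of CAC reads and 40.6% of all valine reads. Its best-read copies were tRNA-Val-CAC-2-5 at 2345 ± 506 RPM, tRNA-Val-CAC-2-4 at 2272 ± 494 RPM and tRNA-Val-CAC-2-3 at 2222 ± 485 RPM (SD, n = 24). The other CAC isodecoders were lower by an order of magnitude or more. tRNA-Val-CAC-3-1 had 123 ± 53.6 RPM, tRNA-Val-CAC-1-1 91.2 ± 76.2 RPM and tRNA-Val-CAC-4-1 74.5 ± 16.9 RPM. At the foot of the list, tRNA-Val-CAC-5-1 had 153 reads over all libraries and tRNA-Val-CAC-7-1 had 65. The last was at 0 reads in 2 libraries, DBP library 3 and DEHP library 5, where a count of 0 allows up to 0.305 and 0.25 RPM (3 reads).

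Reads of the AAC form were less concentrated on a single isodecoder, although both forms have the same number of isodecoders. tRNA-Val-AAC-1, with 2 copies, held 78.3% of AAC reads, at 3250 ± 841 RPM on tRNA-Val-AAC-1-1 and 1301 ± 336 RPM on tRNA-Val-AAC-1-2. tRNA-Val-AAC-5-1 followed with 16.2% of AAC reads, at 946 ± 216 RPM. The row with the fewest AAC reads was tRNA-Val-AAC-6-1 at 27.7 ± 5.77 RPM, and tRNA-Val-AAC-2, tRNA-Val-AAC-3 and tRNA-Val-AAC-4 each held 1.02% to 2.20%. TAC has a single isodecoder. Its copies tRNA-Val-TAC-1-1, tRNA-Val-TAC-1-3 and tRNA-Val-TAC-1-2 stood at 3753 ± 1595, 3750.1 ± 1597 and 2501 ± 1067 RPM.

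**Figure D2:**
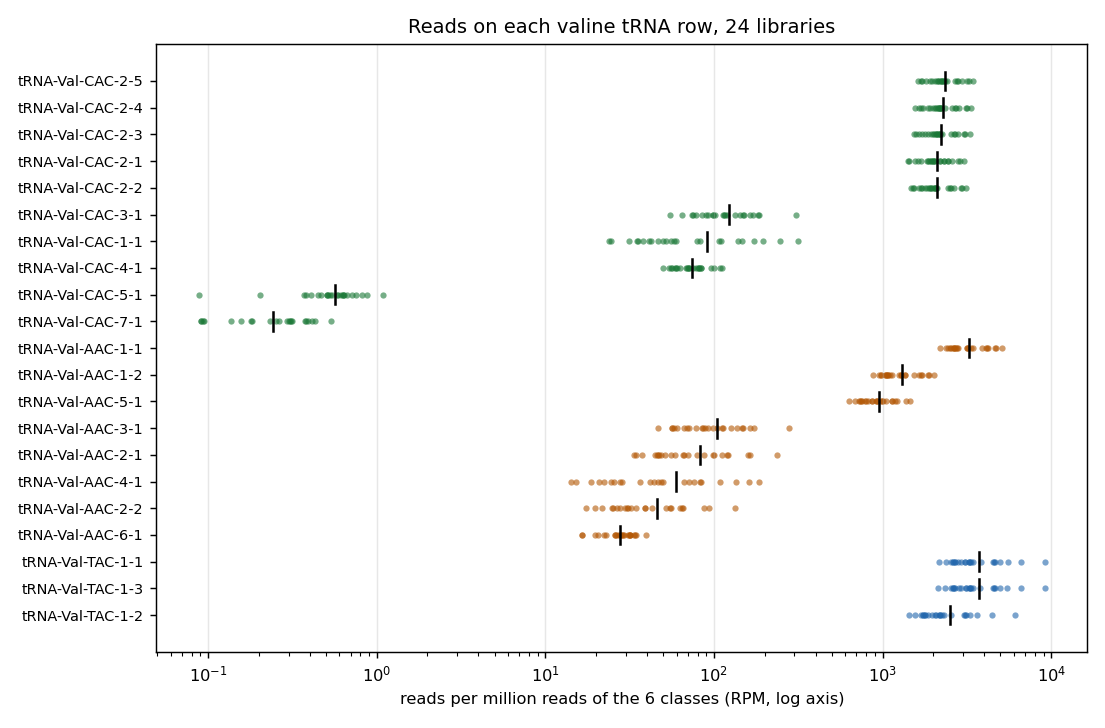
Reads on each of the 21 valine tRNA rows (RPM, log axis), by anticodon and ordered by mean. Points are the 24 libraries and vertical bars the mean. Points at 0 are not drawn (2 libraries of tRNA-Val-CAC-7-1). The 5 copies of CAC-2 lie close together, and CAC-1-1 and AAC-4-1 spread the most among the rows with more than a few reads.

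Copies of TAC-1 and of AAC-1 shared reads in nearly fixed proportions. tRNA-Val-TAC-1-2 had 0.666 reads per read on tRNA-Val-TAC-1-1, between 0.657 and 0.674 in all 24 libraries, a coefficient of variation of 0.67%. tRNA-Val-AAC-1-2 had 0.400 reads per read on tRNA-Val-AAC-1-1, between 0.393 and 0.408. The proportion of tRNA-Val-TAC-1-3 to tRNA-Val-TAC-1-1 was 0.999, between 0.982 and 1.02. Copies of 1 isodecoder are therefore not separate measurements of the samples, and the sources used here do not say how reads matching several copies were counted. The copies of CAC-2 kept fixed proportions less closely. tRNA-Val-CAC-2-2 had 0.856 to 0.950 reads per read on tRNA-Val-CAC-2-1 in the 8 libraries numbered 5 and 6 of each group, and 1.01 to 1.07 in the 16 libraries numbered 1 to 4. The ranges do not overlap. For tRNA-Val-CAC-2-3 per read on tRNA-Val-CAC-2-1 they were 0.954 to 1.03 and 1.07 to 1.10, again without overlap. Between tRNA-Val-CAC-2-5 and tRNA-Val-CAC-2-4 the proportion stayed at 1.02 to 1.05 in all libraries.

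Libraries 5 and 6 of each group stood apart in other values too, and no label names a batch for them. Their valine reads came to 22249 ± 2158 RPM (SD, n = 8), against 29591 ± 8198 RPM (SD, n = 16) in libraries 1 to 4, and their tRNA share was 30.6% ± 2.59 against 38.3% ± 4.01. TAC was at 7348 ± 1053 RPM in libraries 5 and 6 and 11332 ± 4653 RPM in libraries 1 to 4. Likewise AAC was at 4652 ± 375 and 6403 ± 1557 RPM, and CAC at 10249 ± 1027 and 11856 ± 2839 RPM. As a share of tRNA reads, valine was at 7.31% ± 0.850 in libraries 5 and 6 against 7.68% ± 1.81. On that scale CAC was higher in libraries 5 and 6, at 3.38% ± 0.479 against 3.07% ± 0.563. TAC, at 2.40% ± 0.285 against 2.95% ± 1.13, and AAC, at 1.53% ± 0.172 against 1.66% ± 0.310, were lower. These levels overlap. The ratio of AAC to CAC reads does not: it was 0.433 to 0.478 in libraries 5 and 6 and 0.509 to 0.561 in libraries 1 to 4, which include the libraries numbered 4 on lane 7. The split is the same in all 4 groups. It was chosen after the profile had been seen in the same counts, so these values are a description with no test. For the exposure comparisons the fit was repeated with a term for libraries 5 and 6 and, separately, on libraries 1 to 4 only. Values of these fits against control are given with the other alternatives at the end.

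**Figure D3:**
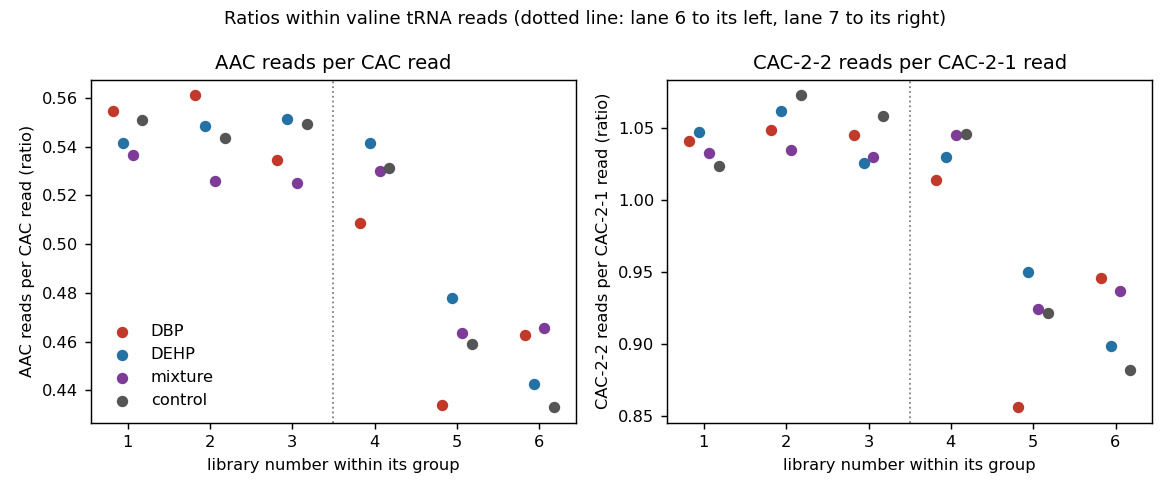
Left, AAC reads per CAC read; right, reads on tRNA-Val-CAC-2-2 per read on tRNA-Val-CAC-2-1, both as ratios, against the number of the library within its group. Points are single libraries coloured by group. In both panels all libraries numbered 5 and 6 lie below all libraries numbered 1 to 4, in every group.

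Most of the valine isodecoders with more than a few reads varied together over the 24 libraries. The 4 with the most reads, CAC-2, AAC-1, AAC-5 and TAC-1, hold 97.8% of valine reads, and their pairwise Pearson correlations of log2 CPM ran from 0.68 to 0.96, with TAC-1 the least close to the others (0.68 to 0.77). CAC-2 and AAC-5 were the closest pair of these at 0.96, although their anticodons differ. The 5 isodecoders CAC-1, CAC-3, AAC-2, AAC-3 and AAC-4, with 1.85% of valine reads, correlated at 0.88 to 0.99 with each other. They are not separate from the leading isodecoders: AAC-2 correlated at 0.87 with AAC-5 and AAC-4 at 0.85 with AAC-1, both above the values of TAC-1 with its fellow leading isodecoders. The summed level of these 5 varied more than that of the 4 leading isodecoders, from 191 RPM in control library 2 to 1433 RPM in DEHP library 3, a 7.49-fold range. By comparison the highest library exceeded the lowest by 2.35-fold on tRNA-Val-AAC-1-1, by 2.12-fold on tRNA-Val-CAC-2-5 and by 4.24-fold on tRNA-Val-TAC-1-1. tRNA-Val-AAC-6 ran the other way, at -0.48 with AAC-1 and -0.57 with AAC-4, and CAC-4 was nearly unrelated to TAC-1 at -0.016. AAC-6 averaged 33.1 ± 3.12 RPM in libraries 5 and 6 and 25.0 ± 4.86 RPM in libraries 1 to 4. AAC-1 (3622 ± 288 against 5017 ± 1180 RPM) and AAC-4 (27.7 ± 7.89 against 75.8 ± 49.9 RPM) were lower on average in libraries 5 and 6. The ranges overlap, and a link of this split to the correlations was not tested. All correlations here share the library totals, and isodecoders of similar sequence can exchange reads. The set of 5 was formed after the values were seen, and the set of 4 by read number.

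**Figure D4:**
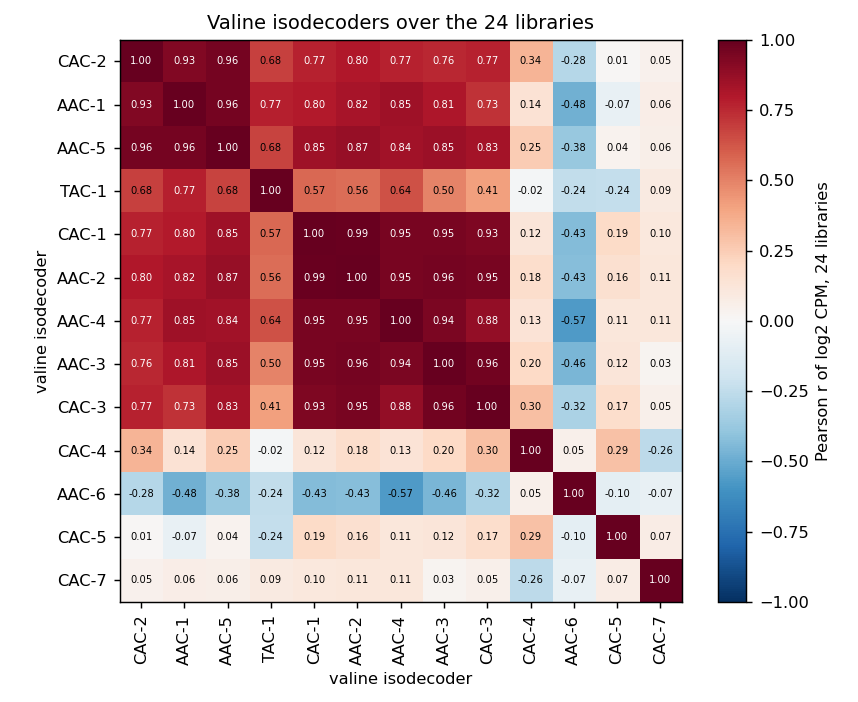
Pearson correlation of log2 CPM over the 24 libraries between the 13 valine isodecoders (prior count 2), with the value in each cell. The block of CAC-1, AAC-2, AAC-4, AAC-3 and CAC-3 stands at 0.88 to 0.99, and AAC-6 is negative with most others.

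Among the other anticodons with a mean of at least 100 reads per library, the profile nearest to CAC was that of AAC (Pearson r = 0.94 over 24 libraries), then TAC (0.68) and the serine anticodon TGA (0.60). TAC was nearest to AAC (0.75), then to the serine anticodons AGA (0.74) and TGA (0.72). AAC in turn was followed by serine AGA (0.77) after CAC. These values are a description over 47 other anticodons that share library totals.

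DBP was compared with the vehicle to ask whether this phthalate alone altered the RNA cargo. Mean RPM after DBP was 0.97 of the control mean for CAC, 0.97 for AAC and 0.85 for TAC. CAC ran from 7787 through a median of 10426 to 13648 RPM in DBP libraries, against 8013 through 10288 to 15405 RPM in control libraries. AAC ran from 4162 through 4712 to 7658 RPM after DBP and from 4342 through 4897 to 8185 RPM in controls. TAC ran from 6284 through 7964 to 12286 RPM after DBP and from 7107 through 8360 to 17676 RPM in controls. The groups overlap for each anticodon, and 2, 2 and 1 of 6 DBP libraries lay above the control mean for CAC, AAC and TAC.

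In the edgeR fit of all 24 libraries the log2 fold change after DBP was 0.01 ± 0.31 for CAC (SE, 95% interval -0.62 to 0.64), -0.0014 ± 0.32 for AAC (-0.66 to 0.66) and -0.18 ± 0.41 for TAC (-1.03 to 0.67). Adjusted p in edgeR was 0.999, 0.999 and 0.994. Of the 21 rows 19 passed the filter on low counts, all but tRNA-Val-CAC-5-1 and tRNA-Val-CAC-7-1. Of these 0 were called at adjusted p under 0.05, where 0% of the 7454 rows tested were called, and 0 at unadjusted p under 0.05, against 4.91% of all rows. Under the rule in the labels (a fold change of at least 1.5 with p under 0.01) 0 valine rows and 0.724% of all rows qualified. DESeq2 also called 0 valine rows. The mean RPM of CAC was lower after DBP than in controls (10376 ± 1974 against 10715 ± 2684, SD, n = 6 each), while the fitted value, scaled by TMM and adjusted for lane, was just above 0. The median log2 fold change was 0.0083 over the 19 valine rows, 0.32 over the 340 tRNA rows tested and -0.01 over all rows. When the tRNA table was scaled and fitted alone the tRNA median became 0.04, and the values of CAC, AAC and TAC became -0.28, -0.29 and -0.47.

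The valine row with the smallest p after DBP was tRNA-Val-CAC-4-1, a minor isodecoder, at 79.8 ± 20.5 RPM in DBP libraries and 66.7 ± 14.2 RPM in control libraries (SD, n = 6 each). It was above the control mean in 5 of 6 DBP libraries. Its log2 fold change of 0.38 ± 0.25 had an adjusted p of 0.934 in edgeR. By lane, the DBP values were 0.54 on lane 6 and -0.52 on lane 7 for CAC, 0.55 and -0.58 for AAC, and 0.30 and -0.70 for TAC. The lane difference had an adjusted p of 0.798 to 0.899 in edgeR, over the 3 anticodons. Each lane holds 3 libraries per group. Libraries 5 and 6 and control library 4 all ran on lane 7, so lane cannot be told apart from them in any comparison. Without control library 4 the DBP values became 0.29, 0.33 and 0.24, and without DBP library 2 they became -0.23, -0.27 and -0.50.

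DEHP alone was compared with the same controls. Its libraries held the highest mean of all 3 anticodons, with the widest spread. TAC ran from 6956 through a median of 10937 to 24508 RPM in DEHP libraries, against 7107 through 8360 to 17676 RPM in control libraries. CAC ran from 9882 through 11123 to 16738 RPM after DEHP and from 8013 through 10288 to 15405 RPM in controls. AAC ran from 4721 through 5825 to 9062 RPM after DEHP and from 4342 through 4897 to 8185 RPM in controls. DEHP library 4 was the highest of all libraries for each anticodon, and the groups overlap. Above the control mean lay 4 of 6 DEHP libraries for CAC and AAC, and 3 of 6 for TAC.

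The log2 fold change after DEHP was 0.13 ± 0.30 for CAC (SE, 95% interval -0.49 to 0.76), 0.15 ± 0.33 for AAC (-0.52 to 0.82) and 0.30 ± 0.41 for TAC (-0.55 to 1.14), each with an adjusted p of 0.999 in edgeR. All 19 tested valine rows lay above 0, as did 269 of 340 tRNA rows and 3459 of all 7454 rows. The 19 include copies of 1 isodecoder, which are not separate measurements. Their median was 0.16, next to 0.17 over all tRNA rows and -0.02 over all rows. Of the 19, 0 were called at adjusted p under 0.05, where 0% of all rows were, and 0 at unadjusted p under 0.05, against 2.92% of all rows. Under the rule in the labels 0 valine rows and 0.389% of all rows qualified. DESeq2 called 0. On the tRNA scaling CAC became -0.053, AAC -0.027 and TAC 0.11.

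tRNA-Val-CAC-3-1 had the smallest p after DEHP, at 149 ± 81.8 RPM in DEHP libraries and 105 ± 37.1 RPM in control libraries (SD, n = 6 each), with 3 of 6 DEHP libraries above the control mean. Its log2 fold change was 0.38 ± 0.37, with an adjusted p of 0.999 in edgeR. By lane, DEHP values were 0.39 on lane 6 and -0.097 on lane 7 for CAC, 0.38 and -0.066 for AAC, and 0.46 and 0.13 for TAC. The direction was not stable. CAC and AAC were below 0 on lane 7, which includes DEHP library 4, and also with the tRNA table fitted alone. Of 12 fits that each left out 1 library, 1 reversed the sign of each anticodon, the fit without DEHP library 4. Without DEHP library 4 the values were -0.078, -0.12 and -0.17, and without control library 4 they were 0.42, 0.50 and 0.75.

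The mixture carried both phthalates, each at the dose given alone. CAC ran from 8362 through a median of 11848 to 14101 RPM in mixture libraries, against 8013 through 10288 to 15405 RPM in control libraries. AAC ran from 3876 through 6255 to 7417 RPM after the mixture and from 4342 through 4897 to 8185 RPM in controls. TAC ran from 5734 through 8529 to 12365 RPM after the mixture and from 7107 through 8360 to 17676 RPM in controls. All overlap, with 4, 4 and 2 of 6 mixture libraries above the control mean for CAC, AAC and TAC.

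The log2 fold change was 0.096 ± 0.30 for CAC (SE, 95% interval -0.53 to 0.72), 0.075 ± 0.33 for AAC (-0.60 to 0.75) and -0.18 ± 0.41 for TAC (-1.03 to 0.67). Adjusted p in edgeR was 0.9997 for each. Of the 19 tested rows 11 lay above 0, next to 259 of 340 tRNA rows and 3399 of all 7454 rows. The median was 0.057, against 0.14 over all tRNA rows and -0.024 over all rows. At adjusted p under 0.05, 0 were called, where 0% of all rows were, and at unadjusted p under 0.05 0 were, against 2.72% of all rows. Under the rule in the labels 0 valine rows and 0.416% of all rows qualified, and DESeq2 called 0. tRNA-Val-CAC-1-1 had the smallest p, at 61.1 ± 27.8 RPM in mixture libraries and 80.7 ± 60.6 RPM in control libraries (log2 -0.45 ± 0.63, adjusted p 0.9996 in edgeR). It was above the control mean in 1 of 6 mixture libraries. By lane, the mixture values were 0.56 on lane 6 and -0.34 on lane 7 for CAC, 0.51 and -0.33 for AAC, and 0.24 and -0.60 for TAC. Without control library 4 the TAC value was 0.26. With the tRNA table fitted alone CAC was -0.12, AAC -0.14 and TAC -0.39.

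**Figure D5:**
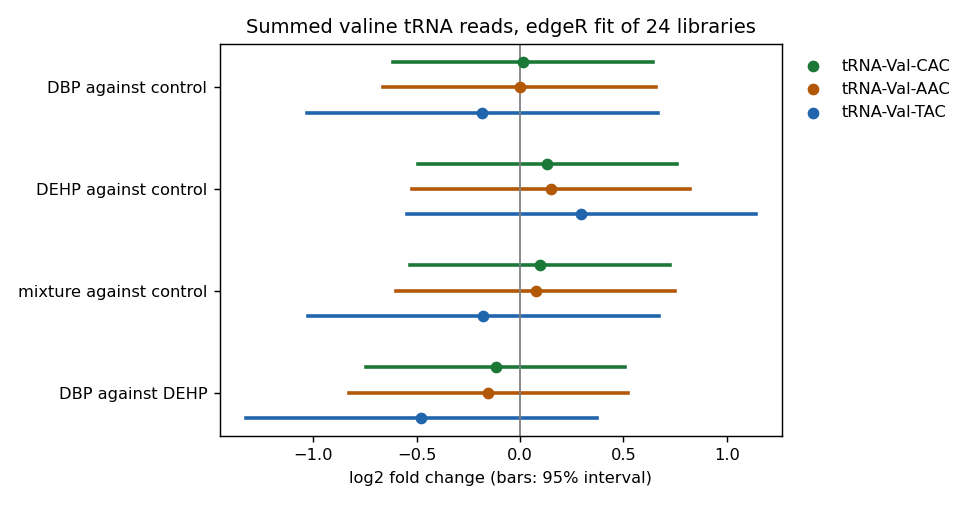
Log2 fold change of the summed reads of each valine anticodon in 4 comparisons, from the edgeR fit of 24 libraries. Bars are 95% intervals. All 12 intervals include 0, and those of TAC are the widest, such as -1.33 to 0.37 for DBP against DEHP.

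DBP and DEHP are both phthalate diesters and differ in their alcohol part, a straight butyl chain in DBP and a longer branched chain in DEHP. They were given to separate groups at the same mass dose for the same time, and the groups were compared without pairing of libraries. TAC averaged 8412 ± 2212 RPM in DBP libraries and 12706 ± 6517 RPM in DEHP libraries (SD, n = 6 each), with 0 of 6 DBP libraries above the DEHP mean. The groups overlap, since 3 of 6 DEHP libraries lay at or below 8679 RPM. CAC averaged 10376 ± 1974 RPM after DBP and 12515 ± 3045 RPM after DEHP, and AAC 5299.9 ± 1296 RPM after DBP and 6529 ± 1942 RPM after DEHP, with 1 of 6 DBP libraries above the DEHP mean for each.

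The log2 difference of DBP from DEHP was -0.48 ± 0.41 for TAC (SE, 95% interval -1.33 to 0.37), -0.15 ± 0.33 for AAC (-0.83 to 0.52) and -0.12 ± 0.30 for CAC (-0.74 to 0.51), each with an adjusted p above 0.9999 in edgeR, over all features. The intervals leave room for differences in either direction and do not show that the compounds act alike. Of the 19 rows tested 18 lay below 0, next to 93 of 340 tRNA rows and 3565 of all 7454 rows. Copies of 1 isodecoder among the 19 are not separate measurements. The median was -0.14, against 0.15 over all tRNA rows and 0.016 over all rows. At adjusted p under 0.05, 0 of the 19 were called, where 0% of all rows were. Under the rule in the labels 0 valine rows and 0.376% of all rows qualified, and DESeq2 called 0. At unadjusted p under 0.05 there was 1 valine row, against 3.53% of all rows.

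That row was tRNA-Val-AAC-6-1, the AAC isodecoder with the fewest reads, at 24.4 ± 7.39 RPM in DBP libraries and 31.4 ± 4.92 RPM in DEHP libraries (SD, n = 6 each). DBP libraries ranged from 16.4 to 33.6 RPM and DEHP libraries from 26.4 to 39.4 RPM, so the groups overlap, and 2 of 6 DBP libraries lay above the DEHP mean. The log2 difference was -0.29 ± 0.13, with an unadjusted p of 0.0362 and an adjusted p of 0.9999 in edgeR's quasi-likelihood test. In sums by anticodon the difference of CAC turned from below 0 to 0.077 and that of AAC to 0.093 without DEHP library 4, and that of TAC shrank to -0.046. By lane, TAC differed by -0.16 on lane 6 and -0.83 on lane 7, CAC by 0.15 and -0.42, and AAC by 0.17 and -0.52.

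The 8 other anticodons known as sources of 5′ fragments in sperm (glutamate CTC and TTC, glycine GCC, CCC and TCC, lysine CTT, histidine GTG and aspartate GTC) also gave 0 calls at adjusted p under 0.05 in edgeR in all 4 comparisons, where 0% of the 7164 rows of the fit by anticodon were called. At unadjusted p under 0.05 there was 1, tRNA-His-GTG after DBP (log2 0.85, unadjusted p 0.0249, adjusted p 0.976 in edgeR), against 4.41% of all rows of that fit. The other comparisons gave 0, against 2.93% of all rows for DEHP, 2.69% for the mixture and 3.55% for DBP against DEHP. Their median log2 value was 0.088 after DBP, 0.081 after DEHP, 0.14 after the mixture and 0.094 for DBP against DEHP. The valine medians over rows in the same order were 0.0083, 0.16, 0.057 and -0.14. The comparisons with control share the same 6 control libraries.

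The make-up of the valine reads by anticodon overlapped between the groups in every comparison, and no test was run on these shares. TAC gave 34.8% ± 3.85 of valine reads after DBP, 38.7% ± 9.24 after DEHP, 33.5% ± 3.599 after the mixture and 37.2% ± 3.97 in controls (SD, n = 6 each). CAC gave 43.3% ± 3.09, 40.5% ± 6.61, 44.1% ± 3.01 and 41.6% ± 3.94 in the same order of groups, and AAC 21.96% ± 1.93, 20.8% ± 3.02, 22.4% ± 1.15 and 21.1% ± 0.919. For the AAC share 6 of 6 mixture libraries lay above the control mean, a difference of means larger than either SD. For the CAC share 6 of 6 DBP libraries lay above the DEHP mean, a difference of means smaller than either SD. In the DEHP group the TAC share ran from 25.9% in library 3 to 48.7% in library 4. The 5 isodecoders that moved together summed to 516 ± 302 RPM after DBP, 656 ± 453 RPM after DEHP, 422 ± 147 RPM after the mixture and 437 ± 222 RPM in controls. All of these ranges overlap, and no test was run on them.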

How the data were processed

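The authors deposited read counts per reference sequence, not normalized, in a table for each library and RNA class. The submitters' processing notes name cutadapt and STAR 2.7.6a, and per the labels miRNA was mapped before tRNA and tRNA before the other classes. Reference release, genome build, strand and the handling of multiply matching reads are not stated in the sources used here. Rows without a name and the unmapped column held 0 reads. No tRNA tables of different libraries were identical.

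Tables of the 6 classes were joined. The main test was the two-sided quasi-likelihood test of edgeR 4.0.16, run in R 4.3.3 after filterByExpr, with TMM factors (0.626 in DBP library 2 to 1.31) and with group and lane in the model. All 24 libraries shared the spread (biological coefficient of variation 34.6%). Adjusted p are Benjamini-Hochberg values over all 7454 rows. A second fit used tRNA rows summed by anticodon (7164 rows). SEs and 95% intervals were derived from the fold change and the F statistic. DESeq2 1.42.0 was an alternative. The fit was tested on simulated data. Figures used matplotlib 3.10.9 in Python 3.11.15.

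Named rows are the 3 best-read and the least-read of each anticodon and the smallest p per comparison, and others are named as examples chosen after their values were seen. The members, lists and alternatives were chosen with earlier results of these data known. If libraries are not from separate mice, p-values measure only the spread between libraries.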

Additional observations from a re-analysis of the deposited data

Results flagged for a closer look

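Of 68 group and measure pairs examined for a library far from the rest, 5 had one, and chance gives about 1 in 20. Control library 4 was far above the other controls for TAC, at 17676 RPM against 10149 RPM in the next. The same library stood out on each TAC copy, at 6623 RPM on tRNA-Val-TAC-1-1, 4445 RPM on tRNA-Val-TAC-1-2 and 6607 RPM on tRNA-Val-TAC-1-3, which share reads in fixed proportions and so repeat 1 observation. In the DEHP group library 3 had 304.8 RPM on tRNA-Val-CAC-3-1, against 170.3 RPM in the next (gap over range 0.627, where 0.625 is the limit).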

How the results depend on the processing

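In all alternatives run, including those that leave out 1 library, 0 valine rows were called at adjusted p under 0.05 in the 4 comparisons, and 0 anticodon sums were (smallest adjusted p 0.675 with edgeR on lane 6). Directions were not stable. For DBP, CAC became -0.28 with the tRNA table alone and -0.52 on lane 7, AAC 0.0008 with DESeq2 size factors and with the DESeq2 test, 0.037 with the replicate block, 0.082 with a term for libraries 5 and 6, 0.16 on libraries 1 to 4 only and 0.55 on lane 6, and TAC 0.30 on lane 6. For DEHP, CAC became -0.053 with the tRNA table alone and -0.097 on lane 7, and AAC -0.027 and -0.066. For the mixture, CAC became -0.12 with the tRNA table alone and -0.34 on lane 7, AAC -0.14 and -0.33, and TAC 0.24 on lane 6. For DBP against DEHP, CAC became 0.15 and AAC 0.17 on lane 6. The cause was not tested. With 1 library left out, CAC, AAC and TAC ran from -0.23 to 0.29, -0.27 to 0.33 and -0.50 to 0.24 for DBP, from -0.078 to 0.42, -0.12 to 0.50 and -0.17 to 0.75 for DEHP, from -0.022 to 0.38, -0.043 to 0.42 and -0.33 to 0.26 for the mixture, and from -0.37 to 0.077, -0.43 to 0.093 and -0.81 to -0.046 for DBP against DEHP. The fit on libraries 1 to 4 only was chosen after seeing the data. Without a filter on low counts, over 60115 rows, 41 rows of all classes were called for DBP, 6 for DEHP, 5 for the mixture and 3 for DBP against DEHP, and 0 of them were valine rows. Whether replicate numbers pair the libraries was not settled. Of 6 pairs, correlations of deviations over 0.1 numbered 4 for DBP, 5 for DEHP, 5 for the mixture and 4 for DBP against DEHP. In the same order 3, 3, 3 and 1 of 6 correlated best with their own number. Same-number correlations ran from -0.25 to 0.55, -0.032 to 0.64, -0.13 to 0.62 and 0.017 to 0.59. Correlations of differently numbered libraries averaged -0.042, -0.066, -0.058 and -0.049. The replicate block left the calls at 0. Without libraries 5 and 6 the level averaged 11856 RPM for CAC, 6403 for AAC and 11332 for TAC, and the order of the anticodons was the same on the scale of tRNA reads.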
